A study of Mus musculus with 8 samples.

Results

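The globin-rich cells of day 5 embryoid bodies were the cells in which at least 1% of the unique molecular identifiers (UMIs, the counts of single RNA molecules) came from 7 globin genes, Hba-x, Hba-a1, Hba-a2, Hbb-bh1, Hbb-y, Hbb-bs and Hbb-bt, and in which mitochondrially encoded (mt-) genes took at most 15%. There were 505 of them among 7589 cells within the mt- limit, 14 of 3197 in the Tet triple knockout (TKO) library and 491 of 4392 in the wild-type (WT) library. The members were chosen by their measured globin share, so globin values are given as a description, while the other genes were not used in the choice. The markers set for this population, Hbb-bh1, Hba-x, Hbb-y and Alas2, were all detected in both libraries, and at least 3 of the 8 erythroid marker genes that the rule did not use were seen in 14 of 14 TKO cells and 465 of 491 WT cells, against 6 of 3183 other TKO cells and 58 of 3901 other WT cells.

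The study asked what TET proteins do as mouse embryonic stem cells move toward the cardiac lineage. Both libraries came from the E14-NKX2-5-EmGFP embryonic stem cell line, which carries a fluorescent reporter of the cardiac factor gene Nkx2-5, was grown on mitomycin C treated embryonic fibroblast feeders and was then taken through hanging-drop embryoid bodies without leukemia inhibitory factor and with no treatment. The TKO library was labelled Tet-triple knockout at day 5 and the WT library wild type at day 5, with 1 library per group. How the knockout was made, and from how many clones, is not given in the sources used here, and 6 hydroxymethylation samples of the series were not analysed here. With 1 library per group there was no replicate check of any difference, so no test across libraries was made, and every 95% interval below covers counting error only.

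Primitive erythroid cells are the earliest blood cells of the mouse embryo. They arise in the yolk sac from mesoderm that also gives rise to endothelium, enter the circulation while still nucleated, and fill with embryonic haemoglobin. That haemoglobin joins alpha-type chains (zeta-globin from Hba-x, alpha-globin from Hba-a1 and Hba-a2) with beta-type chains (from Hbb-bh1 and Hbb-y), and in the mouse the Hbb-bh1 product is known to precede that of Hbb-y, while Hbb-bs and Hbb-bt are the adult beta-globin genes.

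The 150 bases before the RefSeq transcription start of 4 globin genes and of Alas2, the erythroid enzyme that starts heme synthesis, are shown because these genes define the cells and their make-up is compared below. Coordinates are in GRCm38.p6, each sequence runs 5′ to 3′ on the strand of its gene, and 7 of 8 genes looked up had an entry. The windows are chr11:32276450-32276599 (plus strand), chr7:103853208-103853357 (minus strand), chr11:32283522-32283671 (plus strand), chr7:103827929-103828078 (minus strand) and chrX:150547267-150547416 (plus strand). Capitals mark matches on either strand to 4 motifs, and adjacent matches run together. They are the GATA motif (GATA with A or T before it and A or G after it), the CACCC motif, the CCAAT motif and the TATAA motif.
Hba-x: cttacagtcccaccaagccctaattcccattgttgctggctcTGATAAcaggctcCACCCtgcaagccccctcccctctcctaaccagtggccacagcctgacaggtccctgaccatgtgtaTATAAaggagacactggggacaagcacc
Hbb-y: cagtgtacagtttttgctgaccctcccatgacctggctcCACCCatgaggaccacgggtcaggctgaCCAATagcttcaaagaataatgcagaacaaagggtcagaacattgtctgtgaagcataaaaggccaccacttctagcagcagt
Hba-a1: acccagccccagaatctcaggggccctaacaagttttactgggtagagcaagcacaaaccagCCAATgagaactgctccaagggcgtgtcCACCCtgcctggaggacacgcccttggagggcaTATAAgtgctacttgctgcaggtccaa
Hbb-bs: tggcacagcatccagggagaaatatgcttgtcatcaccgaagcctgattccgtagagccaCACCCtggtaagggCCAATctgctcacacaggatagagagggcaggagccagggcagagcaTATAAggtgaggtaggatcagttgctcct
Alas2: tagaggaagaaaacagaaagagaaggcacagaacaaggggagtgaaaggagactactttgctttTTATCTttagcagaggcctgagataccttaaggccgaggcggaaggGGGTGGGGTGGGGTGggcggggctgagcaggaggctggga
All 5 windows held CACCC, the core letters of sites read by Klf1-type factors, which occurred in 37.4% of the 32851 promoters of the table in the same window. The GATA letters were present in the Hba-x and Alas2 windows and in 16.0% of all promoters. CCAAT stood in the Hbb-y, Hba-a1 and Hbb-bs windows and in 24.5% of all promoters, and TATAA in the Hba-x, Hba-a1 and Hbb-bs windows and in 14.2%. A match describes letters and shows no binding.

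Globin-rich cells made up 0.438% (95% interval 0.240 to 0.734) of TKO cells and 11.2% (10.3 to 12.1) of WT cells, a TKO over WT ratio of 0.0392 (0.0213 to 0.0664). Few cells lay near the 1% limit. Between 1% and 1.2% there were 1 TKO cell and 12 WT cells, and between 0.8% and 1% there were 2 TKO cells and 16 WT cells. With cells thinned to 4000 UMIs, which left out 190 shallower TKO cells and 373 shallower WT cells, 12 of 3007 TKO cells and 442 of 4019 WT cells were globin-rich. At a limit of 5% there were 8 TKO cells and 267 WT cells, and at 10% there were 1 and 76. Within the population the median globin share was 5.20% in TKO cells and 5.41% in WT cells, with highest values of 14.6% and 25.9%, values that the 1% limit itself helps to set.

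**Figure D1:**
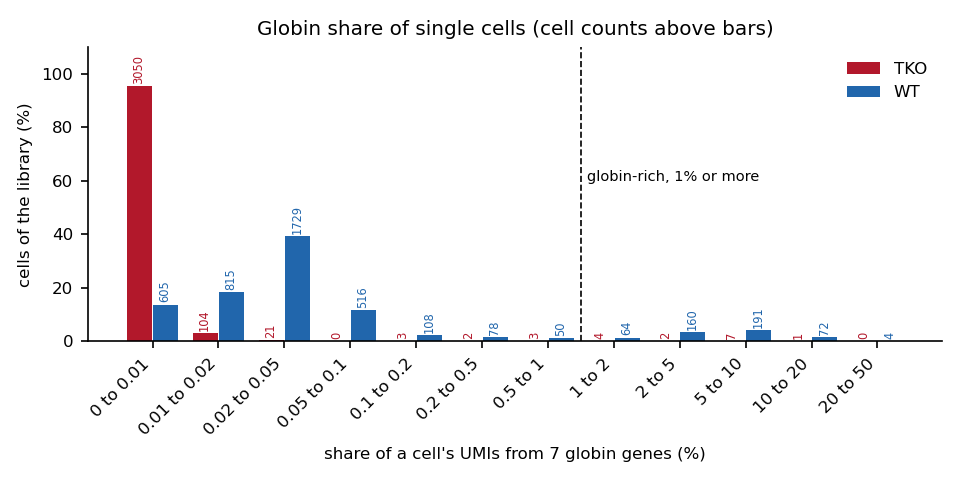
The percentage of cells of each library (linear axis, from 0) is drawn for unequal classes of the share of a cell's UMIs from 7 globin genes, TKO bars left of WT bars and cell counts above them. The dashed line is the 1% limit, to the right of which lie 14 TKO cells and 491 WT cells, while 3050 TKO cells and 605 WT cells lie below 0.01%.

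Globin RNA outside the population differed between the libraries as well. Among all other cells, 3.68% of TKO cells and 67.3% of WT cells had an Hbb-bh1 UMI, at median depths of 9679 and 7721 UMIs. In endothelial-marker cells the share was 7.32% of 41 TKO cells and 67.4% of 175 WT cells. In WT cells under 0.1% globin there were 51.9 Hba-x UMIs and 18.6 Hba-a1 UMIs for each 100 of Hbb-bh1, against 42.6 and 20.6 in the WT globin-rich cells. Where the low globin counts of WT cells outside the population came from was not tested. The libraries otherwise held 33602635 UMIs (TKO) and 37537946 UMIs (WT) over 27998 genes, and 21 barcode sequences occurred in both. Globin-rich cells had a median of 8978.5 UMIs in TKO and 9578 in WT, with 4.44% and 2.96% mt- UMIs and 28.6% and 36.7% ribosomal protein UMIs. A further set of cells stood apart by low mt- content: under 1% mt- UMIs were seen in 2 of 14 TKO and 33 of 491 WT globin-rich cells, against 39 of 3183 and 25 of 3901 other cells.

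Summed over cells, embryonic globins gave most globin UMIs in both libraries, but the TKO cells had a smaller embryonic part and a larger adult-type alpha-globin part. Hba-x, Hbb-bh1 and Hbb-y together gave 71.2% (70.3 to 72.2) of 8642 globin UMIs in TKO cells and 84.9% (84.8 to 85.1) of 275955 in WT cells. Hba-a1 and Hba-a2, which encode near-identical chains and are best read as a sum, gave 24.5% (23.6 to 25.5) in TKO cells and 13.1% (12.9 to 13.2) in WT cells. The adult beta-globin pair Hbb-bs and Hbb-bt, whose copies also differ between mouse strains and cannot be split with confidence here, gave 4.22% (3.81 to 4.67) in TKO cells and 2.02% (1.97 to 2.08) in WT cells. These are shares of UMIs, with no correction for gene length.

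Among the beta-type genes, Hbb-bh1 held 42.8% of globin UMIs in TKO cells and 55.2% in WT cells. Hbb-y, the later of the embryonic beta-type genes, held 2.81% in TKO cells and 6.13% in WT cells, but with each cell weighted equally 7.23% and 4.24%, so its direction depended on the weighting. It was over 10% of globin UMIs in 4 of 14 TKO cells and 68 of 491 WT cells. The alpha-type genes as a whole gave 50.2% in TKO cells and 36.6% in WT cells, and Hba-x was 51.1% of the alpha-type UMIs in TKO cells against 64.3% in WT cells. Weighting each cell equally, the embryonic share was 60.7% in TKO cells and 83.5% in WT cells. With classes of globin share weighted, in both libraries, by their number of TKO cells, it was 61.0% and 84.1%. The median cell had 79.5% embryonic globin in TKO and 86.8% in WT, and the lower quartile was 37.2% in TKO and 80.9% in WT. Cell ranges were 2.02% to 92.6% and 2.60% to 100%, so single cells of the libraries overlapped over nearly the whole range.

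The 14 TKO cells, ordered by globin share, were not alike. The 3 cells at 1.34%, 1.64% and 1.72% globin had mostly Hba-a1 and Hba-a2 UMIs, with 97 of 99, 40 of 56 and 66 of 85. The cell at 3.14% had 83 Hbb-y UMIs, 43 Hba-x UMIs and none of Hbb-bh1, and its mt- share of 0.0692% was the lowest of the 14. The cell at 7.86% had 402 Hba-a1, 259 Hbb-bh1 and 209 Hbb-bs UMIs among 1195 globin UMIs. The cell at 7.22% had 171 Hba-a1 UMIs and 134 of Hbb-bh1. In the other 8 cells Hbb-bh1 had the most UMIs of any globin gene, from 81 in the cell at 1.19% to 1036 in the cell at 14.6%.

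In WT cells the make-up differed between classes of globin share. Hbb-bh1 was over 50% of the beta-type UMIs in 463 of 491 WT cells, Hbb-y in 20, and Hbb-bs with Hbb-bt in 7, classes set after the values were seen. The same classes held 11, 1 and 0 of the 14 TKO cells. The Hbb-y share of globin UMIs was 2.44% in the WT cells with 1 to 2% globin, 1.87% at 2 to 5%, 4.03% at 5 to 10%, 14.6% at 10 to 20% and 2.02% in the 4 cells at 20% or more, where Hbb-bs gave 14.1%. Over the first 4 classes Hbb-bh1 gave 61.5%, 61.3%, 58.8% and 44.1%, and Hba-x gave 16.3%, 20.8%, 23.2% and 27.2%. The WT cells with a majority of Hbb-y had a median globin share of 9.96%, those with a majority of Hbb-bh1 5.28%. Since each share is part of the globin total that sets the classes, these values are a description. Hbq1b, a theta-type globin gene that the choice did not use, had 9 UMIs in TKO cells and 84 in WT cells. In WT it stood at 7.95, 9.90, 18.0 and 62.1 CPM (UMIs for each 1000000 non-globin UMIs) over the 4 classes. Its TKO over WT log2 ratio of CPM was 2.01, higher in TKO, from few TKO UMIs.

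**Figure D2:**
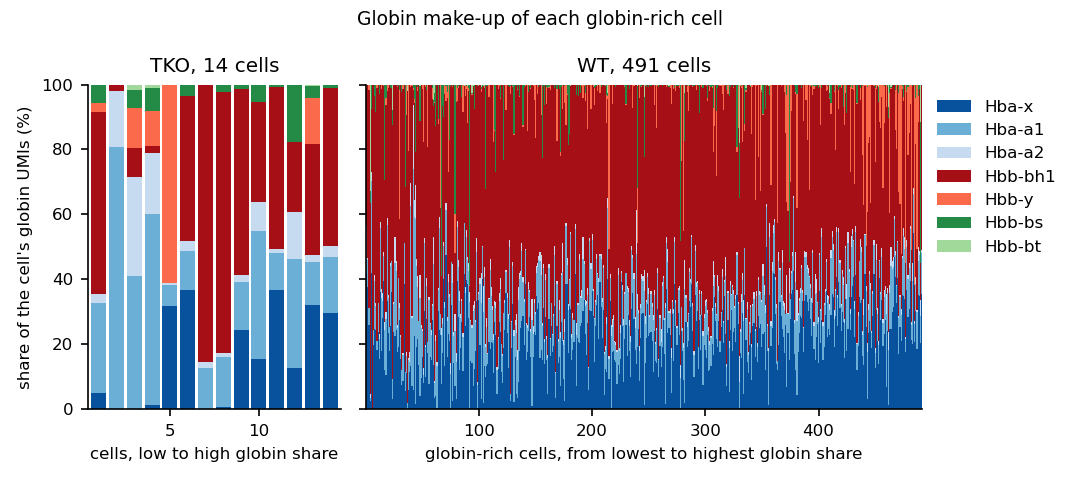
Each bar is 1 globin-rich cell, ordered from the lowest to the highest globin share of its UMIs, for 14 TKO cells (left) and 491 WT cells (right), and colours give the percentage of its globin UMIs from each of 7 genes. Hbb-bh1 and Hba-x fill most WT bars, while several TKO bars at the low end are mostly Hba-a1 and Hba-a2 and 1 is mostly Hbb-y.

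Outside the globin genes, levels are given as CPM of non-globin UMIs, summed over the 129205 such UMIs of the TKO globin-rich cells and the 4633550 of the WT cells. In a ranking over other cells that used both libraries together, the leading genes included the erythroid genes Alas2, Klf1 and Gata1. Among genes with at least 20 UMIs, 26.0% were at least 2-fold higher and 17.7% at least 2-fold lower in TKO globin-rich cells than in other TKO cells, and 6.38% were higher and 32.1% lower in WT. With only 14 TKO cells most of these TKO calls are small counts. Among the 1733 genes with at least 10 UMIs expected in the TKO globin-rich cells, 3.92% were higher and 16.6% lower.

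Ranked by the smaller of their TKO and WT ratios, 12 of the 15 leading genes are described here. Alas2 was at 805 CPM in TKO and 660 CPM in WT globin-rich cells, 2238-fold (1228 to 4471) and 95.7-fold (83.5 to 110.03) above the other cells. The transcription factor genes Klf1 and Gata1 were 323-fold and 299-fold above other TKO cells and 81.2-fold and 39.1-fold above other WT cells. Cited4, Tspan32, Acp5, Slc25a37 (mitoferrin, which carries iron into mitochondria), Car2 (carbonic anhydrase), Cdc25b, Cpox, Fech and Prkar2b stood at 13.6-fold to 344-fold in TKO and 10.3-fold to 77.9-fold in WT. The other cells set the denominator of these ratios, and their Alas2 level was 0.360 CPM in TKO against 6.90 CPM in WT, with an Alas2 UMI in 0.126% of 3183 TKO cells and 3.18% of 3901 WT cells.

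**Figure D3:**
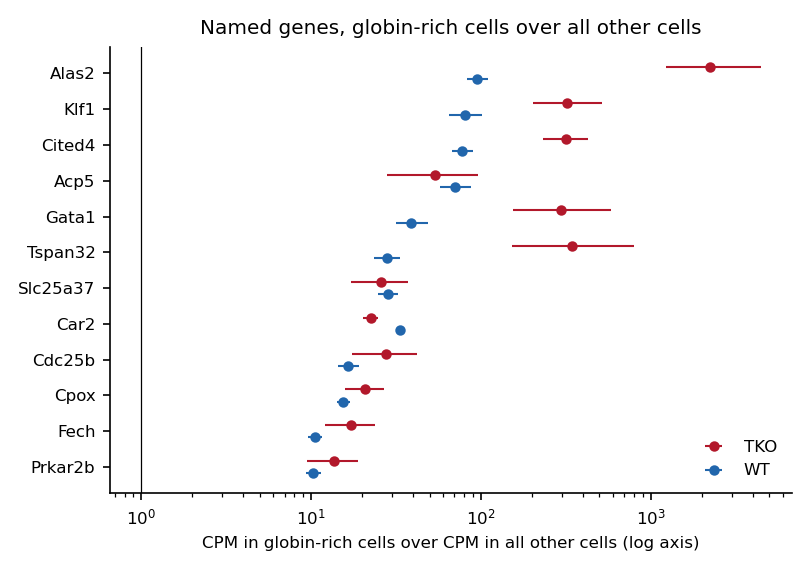
Points give the ratio (log axis) of CPM in globin-rich cells to CPM in all other cells for 12 named genes, TKO above WT in each row, with bars for the 95% counting interval. All 12 lie right of 1 in both libraries, from 10.3 (Prkar2b, WT) to 2238 (Alas2, TKO), and the TKO ratio is the larger for 9 of them, all but Acp5, Slc25a37 and Car2.

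By list, at 20 UMIs or more, 11 of 13 heme genes were at least 2-fold above other cells in TKO and 11 of 13 in WT. Of the erythroid transcription factor genes it was 10 of 15 in TKO and 11 of 16 in WT, of the membrane and skeleton genes 10 of 16 and 19 of 26, and of the redox and metabolism genes 12 of 18 and 13 of 18. Imprinted genes were lower, 15 of 22 in TKO and 19 of 22 in WT, as were genes of Notch, Wnt and Bmp signalling, 14 of 21 and 19 of 21. The shares over all genes were 26.0% higher and 17.7% lower in TKO, and 6.38% and 32.1% in WT. At 10 expected UMIs the TKO cells left 1 heme gene, which was higher, no erythroid factor gene, and 3 membrane genes, of which 0 were higher and 1 lower (median log2 ratio -0.90). At that count 4 of 6 redox genes were higher, and 6 of 7 imprinted and 4 of 4 signalling genes lower.

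Among the other cells, the endothelial-marker cells (41 TKO and 175 WT cells) held some of the same blood factor RNAs. They had a UMI of 3 or more of Pecam1, Cdh5, Kdr, Tek, Esam, Cldn5 and Emcn. Endothelium shares a mesodermal origin with primitive blood. Tal1, a factor needed for both blood and vessel formation, was at 193 CPM in TKO and 72.5 CPM in WT globin-rich cells, against 54.0 and 34.9 CPM in the endothelial-marker cells. Lmo2, its partner, was at 139 and 112 CPM in globin-rich cells and at 334 and 102 CPM in endothelial-marker cells. Runx1, a regulator of definitive blood formation, was at 92.9 and 74.9 CPM in globin-rich cells, against no UMI in the TKO and 9.19 CPM in the WT endothelial-marker cells. Kdr, the vascular receptor of the shared precursor, showed the reverse, with 15.5 and 9.93 CPM in globin-rich cells against 704 and 340 CPM. Since Kdr helped to choose the endothelial-marker cells, its high level there is in part set by that choice. The progenitor receptor gene Kit was seen in 0 of 14 TKO globin-rich cells, which allows a share of up to 23.2%, and in 13 of 491 WT cells, against 10 of 41 and 52 of 175 endothelial-marker cells, whose median depths were 12107 and 8066 UMIs.

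Markers of other cell types were present in the WT globin-rich cells and mostly in those with little globin. At least 3 markers of 1 non-erythroid list (endothelial, mesenchyme, lateral and cardiac mesoderm, endoderm, cardiomyocyte, pluripotent or myeloid) were found in 0 of 14 TKO cells, which allows up to 23.2%, and in 104 of 491 WT cells (21.2%, 17.6 to 25.1). By globin share the WT count was 39 of 64 cells at 1 to 2%, 49 of 160 at 2 to 5%, 15 of 191 at 5 to 10% and 1 of 72 at 10 to 20%. Mesenchyme markers accounted for 86 of these WT cells and lateral and cardiac mesoderm markers for 74, with overlap. The WT cells with such markers had a median of 12176.5 UMIs, those without 8918. The summed level of the 12 mesenchyme markers was 7.74 CPM in TKO and 457 CPM in WT globin-rich cells, with 11 of the 12 at 0 in TKO, and that of the 12 lateral and cardiac mesoderm markers was 77.4 and 259 CPM, with 9 at 0 in TKO. All other cells differed between the libraries as well. There the mesenchyme markers summed to 97.1 CPM in TKO and 2151 CPM in WT, and the lateral and cardiac mesoderm markers to 578 and 1303 CPM. The 16 myeloid markers had 0 UMIs in TKO and 27 in WT. No doublet caller was run, and what part mixed droplets or free RNA played was not tested, so TKO over WT values are given with these 104 cells and, for most genes named, also without them. In the 387 WT cells that remain, the mesenchyme markers summed to 62.9 CPM and the lateral and cardiac mesoderm markers to 72.3 CPM. These lists helped to choose the cells left out, so lower sums follow from the choice.

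The TKO and WT globin-rich cells were then set against each other. Among 8602 genes with at least 20 UMIs in both together, 18.8% were at least 2-fold higher and 11.6% at least 2-fold lower in TKO, 1613 and 996 genes. Scaling by the median of ratios, which set TKO values lower by 0.25 on the log2 scale, turned this split to 1043 and 1408, so counts over rare genes give no direction. Among the 1523 genes with at least 10 UMIs expected in the 14 TKO cells, the background was 3.35% higher and 4.60% lower, with a median log2 ratio of 0.13. Gene lists are read against that set. Against the WT cells without other-type markers, 42 and 66 of the 1523 genes were 2-fold higher and lower, with a median of 0.14. The 1523 genes were chosen with all WT cells counted and were not chosen again, so not all had 10 expected UMIs there.

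Heme genes lay on both sides of the WT level. Of 14 list genes, 8 reached the 10 expected UMIs, and none was 2-fold higher or lower, with a median log2 ratio of -0.0043. Alas2 was at 805 CPM in TKO and 660 CPM in WT, a ratio of 1.22 (0.993 to 1.48), and 13 of 14 TKO cells and 444 of 491 WT cells had a UMI of it, against 0.126% and 3.18% of other cells. Cpox, which acts late in the pathway, had a ratio of 1.40 (1.07 to 1.80), and Fech, which puts iron into the ring, 1.26 (0.886 to 1.74). Alad, Uros and Urod, enzymes of the cytosolic steps, ran the other way, with ratios of 0.588 (0.353 to 0.922) for Alad, 0.564 (0.225 to 1.17) for Uros and 0.594 (0.361 to 0.921) for Urod. Without the 104 WT cells that held other-type markers, Alas2 was at 1.05 (0.855 to 1.28), Cpox at 1.23 (0.939 to 1.58), Alad at 0.495 (0.297 to 0.777), past 2-fold though not once 0.5 is added to each count, and Urod at 0.515 (0.3135 to 0.8004).

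Of 15 iron genes, 5 were in the larger-count set, where none was 2-fold off and the median log2 ratio was 0.38. At 20 UMIs, where 18.8% of all genes were 2-fold higher, 5 of 13 iron genes were, with a median of 0.73. Fth1, the ferritin heavy chain that stores iron, was at 16284 CPM in TKO and 9791 CPM in WT (1.66, 1.59 to 1.74), and 1.51 (1.45 to 1.58) without the 104 cells. The transferrin receptor gene Tfrc was at 255 and 159 CPM (1.61, 1.10 to 2.28), and 1.45 (0.989 to 2.06) without the 104 cells. Slc25a37 was at 248 and 243 CPM (1.02, 0.695 to 1.45).

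Of the 16 erythroid transcription factor genes, 6 were in the larger-count set, 0 higher and 1 lower, with a median log2 ratio of 0.46. Gata1, the master regulator of the lineage, had 22 UMIs in TKO and 545 in WT (170 and 118 CPM, ratio 1.45, 0.900 to 2.21), and 1.22 (0.756 to 1.87) without the 104 WT cells. Klf1, which activates beta-globin and heme genes, was at 348 and 224 CPM (1.55, 1.13 to 2.09), and 1.28 (0.929 to 1.73) without the 104 WT cells. Below the 10 expected UMIs, Tal1 had a ratio of 2.67 (1.70 to 4.01) from 25 TKO UMIs in 12 of 14 cells, and Lyl1, its close relative, 3.32 (1.99 to 5.26) from 20 TKO UMIs in 9 cells. Without the 104 WT cells the ratio of Lyl1 was 2.65 (1.58 to 4.21). The 1 lower gene was Mllt3, a chromatin reader linked to blood stem cell maintenance, at 54.2 CPM in TKO and 179 CPM in WT (0.302, 0.121 to 0.625).

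Genes of the red cell membrane and skeleton were mixed. Of 28 list genes found, 6 had 10 expected UMIs, 1 higher (the glucose transporter gene Slc2a3) and 1 lower (Tspan33), with a median log2 ratio of -0.80. Without the 104 WT cells it was 1 and 2. Tspan33, an erythroid membrane tetraspanin, had 2 UMIs in TKO and 551 in WT (0.130, 0.0157 to 0.472). Add2, the beta subunit of the skeletal protein adducin, had no UMI in TKO and 303 in WT, and with a floor of 3 counts over the TKO cells it was at least 2.82-fold lower in TKO, or 2.28-fold by the two-sided exact interval. Both kept their interval or bound without the 104 WT cells (Tspan33 0.122, 0.0147 to 0.444, and Add2 at least 3.29-fold lower). Slc4a1, the anion exchanger gene, had 4 TKO and 192 WT UMIs and a ratio of 0.747 (0.202 to 1.94), too few counts to place.

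In erythropoietin signalling only Pim1, a survival kinase gene, had 10 expected UMIs, at 364 CPM in TKO and 221 CPM in WT (1.65, 1.203 to 2.21), and 1.34 (0.976 to 1.80) without the 104 WT cells. The receptor gene Epor was seen in 8 of 14 TKO cells and 197 of 491 WT cells, against 5.12% and 4.13% of other cells, at 77.4 and 63.0 CPM (1.23, 0.583 to 2.29). Trib3, with 1 TKO UMI and 264 WT UMIs, had a ratio of 0.136 (0.00343 to 0.763).

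In the redox and red cell metabolism list, 4 of 14 genes were higher and 2 lower in the larger-count set, with a median log2 ratio of 0.10, and without the 104 WT cells 2 and 2. Mt2 entered that set only through its TKO counts, with 348 UMIs against 88 in WT. Its place among the higher genes is therefore a description. The higher ones were the metallothionein genes Mt2 and Mt1, whose products bind zinc and copper, Gclm, a subunit of the glutathione-making ligase, at 2.17 (1.57 to 2.93), and Bpgm, which makes the haemoglobin ligand bisphosphoglycerate, at 2.01 (1.23 to 3.12). Gclm was at 1.86 (1.34 to 2.52) and Bpgm at 1.69 (1.03 to 2.63) without the 104 WT cells. The lower ones were Hebp1, a heme-binding protein gene, with 6 UMIs in TKO and 890 in WT (0.242, 0.0885 to 0.528), and Adk (0.434, 0.174 to 0.901). Blvrb, which reduces biliverdin, was at 464 CPM in TKO and 812 CPM in WT (0.572, 0.436 to 0.738), and 0.513 (0.391 to 0.662) without the 104 WT cells. Prdx2, the main red cell peroxiredoxin, was at 2059 and 2412 CPM (0.854, 0.753 to 0.964), and Car2 at 3034 and 2081 CPM (1.46, 1.31 to 1.61). Without the 104 WT cells Prdx2 was at 0.751 (0.663 to 0.849) and Car2 at 1.23 (1.11 to 1.36).

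Mt2 had 348 UMIs in TKO and 88 in WT, 2693 and 18.99 CPM (ratio 142, 112 to 181), and Mt1 402 and 362 UMIs, 3111 and 78.1 CPM (39.8, 34.5 to 46.0). These UMIs sat in few TKO cells. The 4 TKO cells with the most of them, at 7.22%, 7.67%, 7.86% and 8.32% globin, held 96.0% of the Mt2 and 95.3% of the Mt1 UMIs, from 28 to 153 of Mt2 and 22 to 160 of Mt1 per cell, while the other 10 cells had 0 to 10 of Mt2 and 0 to 7 of Mt1. No WT cell had more than 14 Mt2 or 18 Mt1 UMIs, and 32 and 154 of 491 WT cells had any. In other cells the levels were 48.5 CPM (Mt2) and 91.7 CPM (Mt1) in TKO against 15.7 and 30.2 CPM in WT.

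Glycolysis and hypoxia genes had mostly lower TKO values, with 0 of 11 higher, 1 lower and a median log2 ratio of -0.46, and without the 104 WT cells 0 and 2. Ldha was at 1424 CPM in TKO and 1965 CPM in WT (0.725, 0.623 to 0.839), Aldoa at 1231 and 1716 CPM (0.717, 0.609 to 0.839), and Gapdh at 565 and 954 CPM (0.592, 0.463 to 0.746). Ldha was at 0.647, Aldoa at 0.646 and Gapdh at 0.570 without the 104 WT cells. The 1 gene past 2-fold against all WT cells was Bnip3, a hypoxia-induced mitophagy receptor, at 0.343 (0.147 to 0.679). Bnip3l, its relative that clears mitochondria from maturing red cells, was at 263 CPM in TKO and 447 CPM in WT (0.589, 0.407 to 0.825). Within the maturation list of 22 genes it was 1 of 8 with 10 expected UMIs, where 0 were 2-fold higher and 1 lower, the erythroid gene Trim10 with 4 TKO and 410 WT UMIs (0.350, 0.0949 to 0.903).

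No cell division gene was 2-fold off among the 15 with 10 expected UMIs of 25 in the list, and their median log2 ratio of 0.15 was near the background of 0.13. Top2a had a ratio of 0.790 (0.523 to 1.15), and Birc5 1.62 (1.19 to 2.15). Their list sum was 3189 CPM in TKO and 2865 CPM in WT globin-rich cells, above the 2114 and 2235 CPM of other cells. The Tet genes themselves were sparse in these cells, with 0, 0 and 1 UMIs of Tet1, Tet2 and Tet3 in TKO and 30, 29 and 74 in WT. Their ratios in globin-rich cells ranged up to 4.69, 4.86 and 2.79 at the upper bound, so no difference could be seen at this depth. A count over a whole gene does not show whether part of it is deleted, and the other TKO cells had 22.9, 4.62 and 20.4 CPM of the 3 genes against 13.3, 6.96 and 31.3 CPM in other WT cells. Dnmt1, the maintenance methyltransferase gene, had 6 TKO and 266 WT UMIs (0.809, 0.294 to 1.78).

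Imprinted genes were lower in TKO, by much less once the WT cells with other-type markers were left out. Of 9 in the larger-count set, 1 was higher and 7 lower, with a median log2 ratio of -3.55, and without those cells 1 and 5, with a median of -1.62. The direction was shared by other cells. For the 19 imprinted genes with at least 20 UMIs the median was -1.14 in globin-rich cells and -1.12 in other cells. In other cells the ratio was 0.417 for Meg3 and 0.466 for Peg3, while Grb10 was at 1.37. Meg3, a maternally expressed noncoding RNA, had 1 UMI in TKO and 2419 in WT (0.0148, 0.000375 to 0.0827), and 0.178 (0.00448 to 1.01) without the 104 WT cells. Peg3 had 4 and 998 UMIs (0.144, 0.0391 to 0.369), and 0.614 (0.165 to 1.60) without them. Phlda2 had 0 and 492 UMIs, at least 4.57-fold lower in TKO against all WT cells by the floor of 3 counts and 3.71-fold by the two-sided exact interval, while the remaining WT cells had 16.7 CPM, under the TKO floor of 23.2 CPM. Mest, at 0.157 (0.00396 to 0.888) without those cells, was the 1 of these 7 whose interval stayed below 1. The higher gene, Grb10, an adaptor that restrains growth factor receptors, had 40 UMIs spread over all 14 TKO cells and 468 in 259 WT cells (3.07, 2.16 to 4.24), and 2.97 (2.08 to 4.13) without the 104 cells.

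Over all genes above 200 CPM in the higher library, the 12 highest ratios were Mt2, Mt1, Fgf3, F2r, Phlda1, Nxt1, Slc2a3, Odc1, Grb10, H2afx, Ptp4a2 and Dynll2. A gene enters through the library where it is high, so these genes and their intervals describe a selection by ratio and support nothing further. Fgf3, F2r and Nxt1 were also under 10 expected UMIs. Fgf3, a secreted growth factor gene, had 59 UMIs in 9 of 14 TKO cells (0 to 18 per cell) and 180 UMIs in 93 of 491 WT cells (0 to 13 per cell). Its level was 457 CPM in TKO and 38.8 CPM in WT, a ratio of 11.8 (8.61 to 15.9), and 9.88 (7.19 to 13.4) without the 104 WT cells. In other cells it was at 6.17 CPM in TKO and 12.9 CPM in WT. F2r, the thrombin receptor gene, had a ratio of 4.32 (2.79 to 6.46) with UMIs in 13 of 14 TKO cells and 152 of 491 WT cells, and Odc1, which starts polyamine synthesis, 3.09 (2.49 to 3.79). The remaining ratios lay between 2.65 (Dynll2) and 3.86 (Phlda1), and all 12 intervals lay above 1 also without the 104 WT cells, with the TKO cells that chose the genes still in them.

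The 12 lowest were Sparc, Meg3, Lgals1, Peg3, Tmsb4x, Csrp2, S100a10, Dstn, Gnb2, Cmas, Atp5k and Tmsb10. Sparc, a matrix protein gene of mesenchyme, had no UMI in 14 TKO cells and 975 UMIs in 169 of 491 WT cells, at least 9.06-fold lower in TKO against all WT cells by the floor of 3 counts and 7.36-fold by the two-sided exact interval. Without the 104 WT cells its WT level was 28.0 CPM rather than 210 CPM, and Sparc, Meg3, Peg3, Csrp2, S100a10 and Tmsb10 then had intervals that reached 1 or more. Csrp2 and Tmsb10 changed direction, to 1.16 (0.368 to 2.78) and 1.15 (0.825 to 1.57). The genes that stayed lower were Lgals1 (0.234, 0.0281 to 0.854), the actin-binding thymosin gene Tmsb4x (0.547, 0.323 to 0.870), the actin-severing factor gene Dstn (0.312, 0.142 to 0.596), Gnb2 (0.467, 0.247 to 0.804), Cmas, which activates sialic acid (0.392, 0.202 to 0.689), and Atp5k (0.452, 0.232 to 0.795). In other cells the TKO over WT ratios of the genes that stayed lower were also below 1. They were 0.220 for Lgals1, 0.306 for Tmsb4x, 0.866 for Dstn, 0.614 for Gnb2, 0.893 for Cmas and 0.413 for Atp5k. Sparc, Meg3, Peg3, Csrp2, S100a10 and Tmsb10 were below 1 in other cells as well, from 0.259 (S100a10) to 0.601 (Tmsb10). A ratio below 1 in other cells therefore did not set apart the genes that stayed lower. Dstn, Gnb2, Cmas and Atp5k were each seen in 372 to 401 of 491 WT cells and in 6 to 9 of 14 TKO cells.

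**Figure D4:**
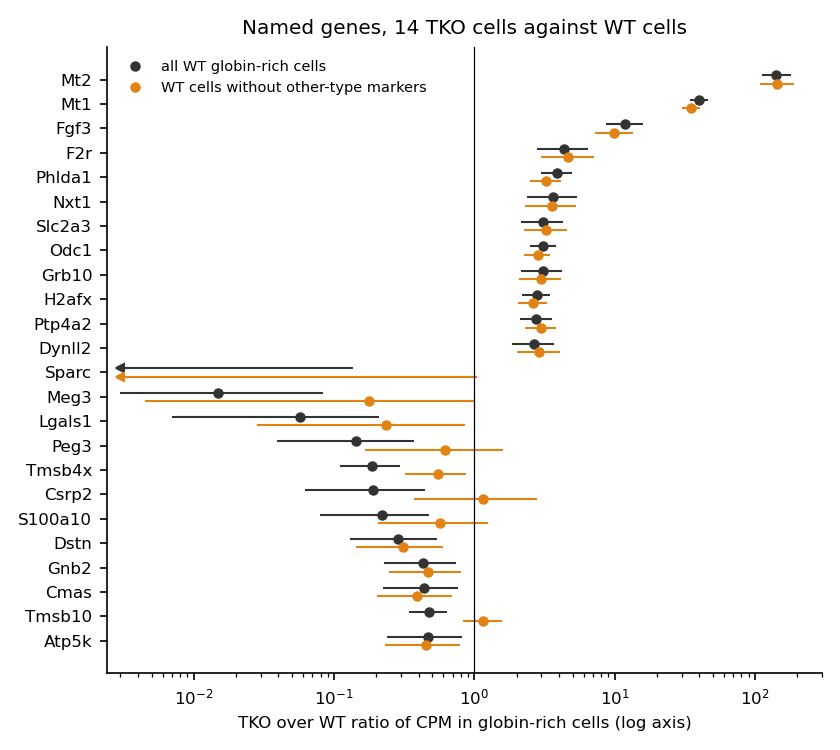
Points give the TKO over WT ratio of CPM in globin-rich cells (log axis) for the 24 named genes, in black against all WT globin-rich cells and in orange against the WT cells without other-type markers, with 95% counting intervals and triangles where TKO had no UMI. The 12 upper genes lie right of 1 in both, while Sparc, Meg3, Peg3, Csrp2, S100a10 and Tmsb10 reach or cross 1 in orange.

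Within the WT library, where 491 cells allowed it, most erythroid genes described here were higher in cells with more globin. The 14 heme genes summed to 1495 CPM at 1 to 2% globin, 2316 at 2 to 5%, 3433 at 5 to 10% and 4147 at 10 to 20%. Without the cells that held other-type markers the sums were 2490, 2644, 3485 and 4165 CPM. Alas2 stood at 270, 491, 848 and 1108 CPM over the 4 classes, 4.10-fold (3.45 to 4.90) higher in the highest class than in the lowest, and 2.51-fold (1.99 to 3.22) without the cells that held other-type markers. The same order held for Car2, 4.14-fold (3.75 to 4.58) and 2.24-fold (1.97 to 2.55), and Pim1, 4.77-fold (3.43 to 6.75) and 2.87-fold (1.84 to 4.71). The 28 membrane genes summed to 1721, 2111, 2563 and 2845 CPM, and to 1576, 2163, 2544 and 2828 CPM without those cells. The 16 erythroid factor genes summed to 828, 1143, 1318 and 1591 CPM, but to 1350, 1362, 1336 and 1593 CPM without those cells, nearly level over the first 3 classes. In the 20 WT cells with a majority of Hbb-y, against the 463 with a majority of Hbb-bh1, Fech was 1.79-fold (1.35 to 2.33), Bnip3l 1.48-fold (1.19 to 1.82) and Alas2 1.40-fold (1.17 to 1.67) higher.

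Genes of other programs ran the opposite way or stayed level, and the slope of the imprinted list was mostly gone without the cells that held other-type markers. The slope of the mesenchyme list was gone as well. Its markers helped to choose the cells left out, so that loss follows at least in part from the choice. The 22 imprinted genes summed to 5279, 2195, 792 and 753 CPM over the same classes and the 12 mesenchyme markers to 1505, 520, 114 and 68.1 CPM. Without those cells the imprinted genes summed to 843, 551, 568 and 750 CPM and the mesenchyme markers to 55.1, 55.7, 65.8 and 69.3 CPM. Meg3 was at 1638 CPM in the lowest class and 44.1 CPM in the highest, a ratio of 0.0269 (0.0168 to 0.0410), and 0.814 (0.370 to 1.92) without the cells that held other-type markers. The lateral mesoderm factor gene Hand1, also one of the markers that chose the cells left out, had ratios of 0.0216 (0.00585 to 0.0562) and 0.493 (0.0834 to 3.37). The 25 cell division genes stood at 2406, 3222, 2797 and 2462 CPM, highest in the class of 2 to 5%, with Mki67 at 113, 156, 115 and 102 CPM.

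**Figure D5:**
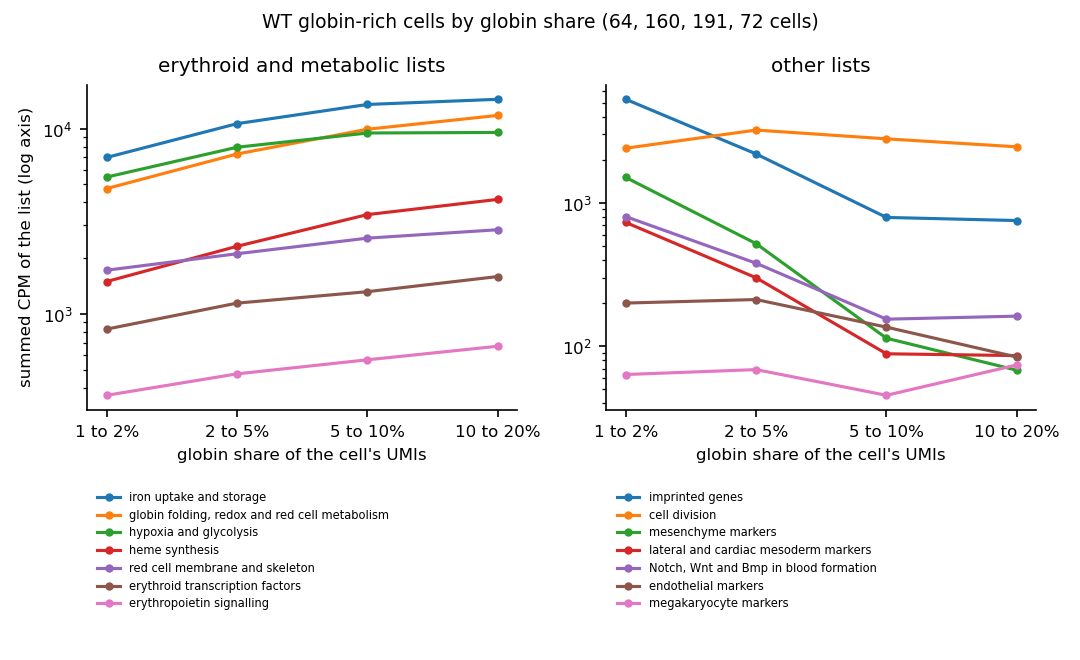
Summed CPM of gene lists (log axis) in WT globin-rich cells is plotted over 4 classes of globin share, erythroid and metabolic lists on the left and other lists on the right, each point a sum over all cells of its class, those with other-type markers included. Heme genes reach 4147 CPM at 10 to 20% globin and mesenchyme markers are at 68.1 CPM, while cell division genes stay between 2406 and 3222 CPM.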

How the data were processed

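Single-cell RNA was measured in 1 TKO and 1 WT library. Raw counts were deposited for each gene in each cell, as whole numbers read here as UMIs. The submitters' processing notes name Seurat 3, BSMAP, MACS2, DESeq2 and mm10 without their roles. No source used here gives the aligner, counter, chemistry or earlier filters. No cell had fewer than 2539 (TKO) or 2396 (WT) UMIs.

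The TKO table named 3224 barcodes but held 3223 values per row, so cells were taken by position. In 116 rows the gene names differed between the tables, each having a 1 after a hyphen in WT and a 2 in TKO, so rows were matched by position and named as in WT. Of 374 genes in 24 lists, 371 were found. The members and the lists were chosen with earlier results of these data known.

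Cells above 15% mt- UMIs were left out (26 TKO, 3 WT). No clustering and no doublet caller was run. Counts were summed over cells and divided by non-globin UMIs to give CPM. Shares have exact Clopper-Pearson 95% intervals and ratios exact conditional binomial ones, and all cover counting error only. The 2-fold counts use log2 ratios with 0.5 added to each count, over genes with at least 20 UMIs or, chosen after seeing the data, at least 10 expected in the smaller group. Expected UMIs assume equal proportions in both groups. Genes were named by rule: the 12 highest and the 12 lowest TKO over WT ratios at 200 CPM or more with an interval that excludes 1, the 15 leading ratios over other cells at 100 CPM or more, without mt-, ribosomal protein, Gm and Rik genes, and up to 6 per list, the markers and the Tet genes. Some genes that this rule names are not reported here. A gene without a TKO UMI was set to a floor of 3 counts over the group. Thinning used 4000 UMIs per cell. The calculations were checked on simulated counts. Promoter letters are from RefSeq (GRCm38.p6). Python 3.11.15, numpy 2.4.6, scipy 1.17.1, pandas 2.3.3 and matplotlib 3.10.9 were used. Alternatives were other globin and mt- limits, thinning, cells above the 95th percentile of UMIs left out, equal cell weights, matching for globin share, other totals and scaling, no count filter, and endothelial-marker cells in place of all other cells. Added after seeing the data were WT cells without other-type markers and cells with at least 1% mt- UMIs.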

Additional observations from a re-analysis of the deposited data

Results flagged for a closer look

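In a search among the named and listed genes, 4 values had opposite directions in globin-rich and all other cells, or in the libraries. In each, both ratios were at least 2-fold from 1, with intervals that excluded 1. These values were selected by that contrast, and the share of all genes meeting it is not given, so they are a description. Fgf3 had also been chosen already as one of the highest TKO over WT ratios. Weaker opposites were not kept, such as F2r at 4.32 in globin-rich and 0.598 in other cells. The differences themselves were not tested, and all 3 genes behind the 4 values had under 10 expected UMIs in the TKO globin-rich cells. Fgf3 had a TKO over WT ratio of 11.8 (8.61 to 15.9) in globin-rich cells and 0.478 (0.403 to 0.566) in other cells. Lyl1, a blood transcription factor gene, had ratios of 3.32 (1.99 to 5.26) in globin-rich cells and 0.138 (0.101 to 0.186) in other cells. Runx1t1, a corepressor gene of the same family as the erythroid partner Cbfa2t3, had ratios of 2.64 (1.42 to 4.54) in globin-rich cells and 0.282 (0.264 to 0.301) in other cells. Its globin-rich over other ratio was 3.12 (1.70 to 5.26) in TKO and 0.333 (0.286 to 0.385) in WT, from 14 UMIs in 8 of 14 TKO cells and 190 UMIs in 128 of 491 WT cells.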

How the results depend on the processing

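No paired analysis was possible because each group had 1 library. The share of globin-rich cells in WT was 12.3%, 9.72%, 6.08% and 1.73% at limits of 0.5%, 2%, 5% and 10% globin, and 8.81% without cells that held other-type markers. In TKO it was 0.0313% at 10%, a TKO over WT ratio of 0.0181. The embryonic share of TKO globin UMIs was 68.0% without cells above the 95th percentile of UMIs, 60.7% with equal cell weights and 61.0% matched for globin share, and Hba-a1 with Hba-a2 gave 27.1%, 35.2% and 34.3%. In WT the embryonic share was 84.6%, 83.5% and 84.1% under these settings, 85.5% at a 5% limit, 85.1% without cells with other-type markers and 84.8% with at least 1% mt- UMIs, and Hba-a1 with Hba-a2 gave 13.4%, 14.1%, 13.9%, 12.8% at 5% and 13.2% with at least 1% mt- UMIs. Genes 2-fold higher in TKO numbered 1613, 6140 without a count filter, 1043 with median-of-ratios scaling (996 and 1408 lower) and 51 with 10 expected UMIs (70 lower). Genes higher in globin-rich than in other TKO cells numbered 3358, 8598 without a filter, 485 against endothelial-marker cells and 68 with 10 expected UMIs, and lower ones 2285, 935 and 288 under the last 2. In WT 823 were higher and 3055 without a filter, and 4148 were lower and 1996 against endothelial-marker cells. The Alas2 slope over globin share was 4.10, and 2.51 without cells with other-type markers. Of 559 alternative values of 91 named values, 85 moved beyond their counting interval (38 TKO over WT ratios, 42 ratios over other cells and 5 of 7 slopes over globin share) and 4 reversed: Csrp2 (log2 0.43 at 5% globin and 0.34 without cells with other-type markers), Tmsb10 (log2 0.22) and the Hmga2 slope (2.59, 0.333 to 117), the last 2 without cells with other-type markers. The cause was not tested. With 14 TKO cells, values of genes under 10 expected UMIs, Fgf3, F2r, Nxt1, Tal1, Lyl1 and Runx1t1 among them, rest on few TKO UMIs.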
